A study of Mus musculus with 7 samples.

Results

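The cytoplasmic ribosomal protein genes were described in kidney RNA from male mice, in animals that lack the heparan sulfate 3-O-sulfotransferases Hs3st3a1 and Hs3st3b1 and in wild-type animals. The set holds every protein-coding gene of the deposited expression table whose symbol follows the standard naming of the large subunit (Rpl, with the stalk genes Rplp0 to Rplp2) or the small subunit (Rps, with Rpsa). Kinases, like-named paralogs and pseudogenes were left out, which gave 77 genes of the 18797 in that table. Of these 77 genes, 46 encode large-subunit and 31 small-subunit proteins. All 77 had enough reads to be tested. The rule reads gene names only, and the table it was applied to holds genes with at least 6 counts in some library. The small-subunit gene Fau and the ribosome-associated Rack1 fall outside this naming and are given separately.

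RNA sequencing compared 4 double knockout (DKO) kidneys, replicates 1 to 4, with 3 wild-type (WT) kidneys, replicates 1, 2 and 4. All 7 animals were male, the tissue is labelled as kidney, and the labels give no factor other than genotype. The DKO animals are labelled as lacking both Hs3st3a1 and Hs3st3b1, enzymes that add sulfate to heparan sulfate chains. The sources used here do not give the age or strain of the mice, the deleted part of each gene, or any promoter or Cre driver.

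A ribosome is built from a small subunit, which reads the mRNA, and a large subunit, which joins amino acids and lets the growing chain leave through a tunnel. Each subunit is made of ribosomal RNA and many small proteins, most of them needed in equal numbers, and their mRNAs are short and abundant in nearly every tissue. Many of these mRNAs begin with a cytosine followed by a run of pyrimidines, the TOP motif, through which mTORC1 and the RNA-binding protein LARP1 control their translation and stability. In the kidney, whose tubule cells make large amounts of transport proteins and enzymes, the same genes are expressed in all cell types.

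The libraries held 23144061, 18330929, 18640040 and 24259400 counts in DKO replicates 1 to 4 and 19114393, 19336543 and 22610701 counts in WT replicates 1, 2 and 4. Hs3st3a1 received 1, 0, 0 and 3 reads in DKO replicates 1 to 4, and 29, 13 and 12 reads in WT replicates 1, 2 and 4, so its reads separated the libraries as labelled. Hs3st3b1 received 33, 106, 65 and 108 reads in DKO and 56, 90 and 112 reads in WT. With the deleted part unknown, that count does not check the label. All 10 kidney markers on a list of tubule, podocyte and endothelial genes were present, with summed levels of 9473 to 11720 CPM (counts scaled to a common library size) in DKO libraries and 9273 to 12800 CPM in WT libraries. Of these, Umod was lower and Slc34a1 and Nphs1 were higher at an unadjusted p under 0.05 (log2 fold changes -0.68, 0.51 and 0.68), and Umod and Slc34a1 make up most of the sum. WT replicate 4 had the highest and DKO replicate 2 the lowest summed level of the ribosomal protein genes, so several results below are also given without 1 or both of them.

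Ribosomal protein mRNAs as a group were lower in DKO kidneys than in WT kidneys, but no single gene passed edgeR's quasi-likelihood test adjusted over all genes. The 77 genes summed to 7971, 5166, 6690 and 6895 CPM in DKO replicates 1 to 4, and to 7968, 9000 and 12130 CPM in WT replicates 1, 2 and 4. DKO replicate 1 lay just above WT replicate 1, so the groups overlapped in this sum, while the other DKO kidneys were below every WT kidney. The mean was 6680 ± 1160 CPM in DKO (SD, n = 4) and 9699 ± 2170 CPM in WT (SD, n = 3), which puts DKO at 68.9% of WT. Counts are relative within a library. In bulk tissue such as this, fewer cells of a type and less RNA per cell cannot be told apart.

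As a share of all gene counts, the set took 0.783% in DKO replicate 1, 0.537% in DKO replicate 2, 0.70% in DKO replicate 3 and 0.696% in DKO replicate 4. It took 0.803%, 0.879% and 1.13% in WT replicates 1, 2 and 4. Every DKO share was therefore below every WT share, though DKO replicate 1 and WT replicate 1 were close. These shares rest on 98345 to 181107 reads in DKO libraries and 153528 to 256247 reads in WT libraries. Exact 95% binomial intervals reached from 0.779% to 0.786% for DKO replicate 1, and they cover counting error only.

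Gene by gene, 76 of the 77 members had a log2 fold change below 0, against 46.8% of the 15394 genes tested, and Rpl4 was the exception at 0.01. By edgeR's quasi-likelihood test, 49 members (63.6%) were lower in DKO at an unadjusted p under 0.05, where 11.3% of all tested genes were, and 0 were higher, where 9.86% of all tested genes were. After Benjamini-Hochberg adjustment over all genes 0 members passed, as did 0.0% of all tested genes, and the smallest adjusted p of a member was 0.163. DESeq2 on the same counts called 20 members as lower, against 2.92% of all genes, and 0 as higher, against 1.44%. All DKO libraries were below all WT libraries in 33 members (42.9%), against 9.04% of all genes, and above in 0, against 8.34%.

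The median log2 fold change of the 77 genes was -0.52, with quartiles of -0.84 and -0.38, and it was 0.04 over all genes tested. Members ranged from -1.41 in Rps15a to 0.01 in Rpl4. Without WT replicate 4 the count at an unadjusted p under 0.05 was 21 (4.45% of all genes) and the median was -0.38. Without DKO replicate 2 the count was 30 (7.0% of all genes), and without both libraries it was 8 (2.32% of all genes) with a median of -0.27 and 71 of 77 members below 0. The direction of the set was thus the same without these libraries, while the number of genes past the unadjusted threshold was not. They are the highest WT and the lowest DKO library in the summed level of the set. Leaving them out therefore narrows the difference by choice, and fewer libraries also weaken each test.

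**Figure D1:**
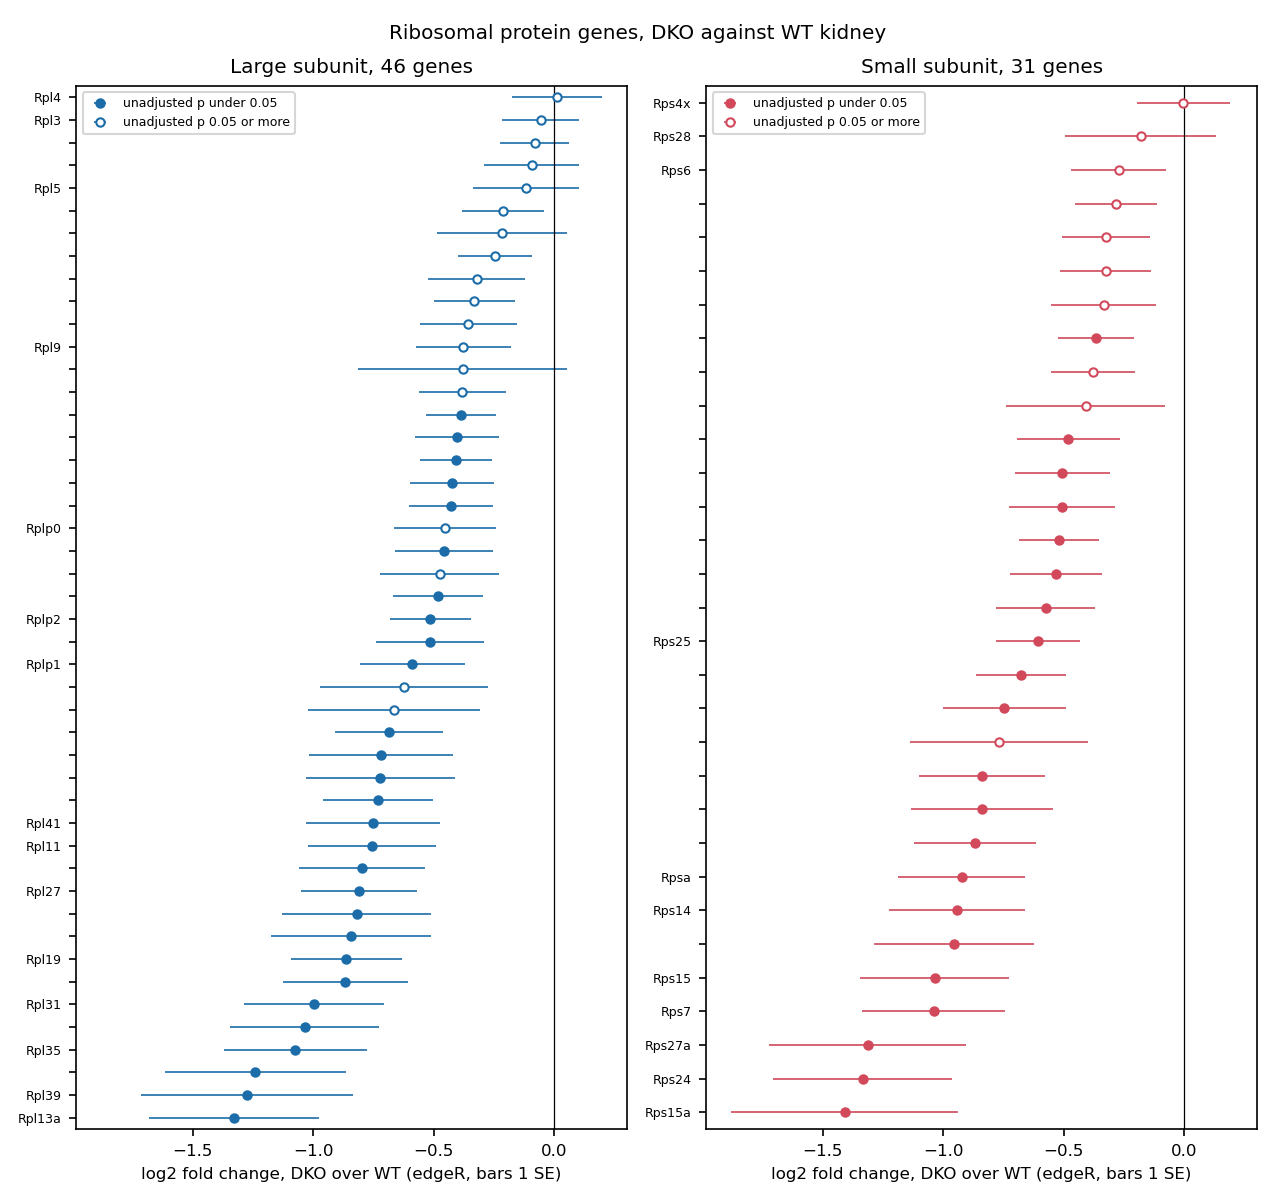
Log2 fold change of DKO over WT for the 46 large-subunit genes (left) and the 31 small-subunit genes (right), ordered by size. Points are edgeR estimates and bars 1 standard error (SE), with filled points for an unadjusted p under 0.05 and names for members described in the text. All genes except Rpl4 lie below 0, and the lowest are Rpl13a (-1.33) and Rps15a (-1.41).

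Levels also varied widely among the kidneys of each genotype. Relative to the WT mean, the median log2 level of the members was -0.26, -0.88, -0.70 and -0.45 in DKO replicates 1 to 4, and -0.25, -0.08 and 0.34 in WT replicates 1, 2 and 4. DKO replicate 1 and WT replicate 1 were therefore nearly level, and DKO replicate 2 and WT replicate 4 formed the extremes. In WT replicate 4 the level was the highest of the 7 libraries in 62 of 77 members, and in DKO replicate 2 it was the lowest in 60. The median of all tested genes stayed between -0.01 and 0.04 in every library. The scaling of the libraries holds that median near 0, so it is a reference line and no separate observation.

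WT replicate 4 did not stand above the other WT kidneys evenly. Its level was between 0.823 times (Rps4x) and 3.17 times (Rps27a) the mean of WT replicates 1 and 2, with a median of 1.42 times. In 15 members, among them Rps15a, Rps24, Rps27a, Rpl39, Rpl12 and Rpl13a, it was at least 2 times that mean. In 24 members, among them Rpl3, Rpl4, Rps25, Rps6 and Rpl9, it was within 1.2 times of that mean. The 6 genes named with the higher ratio, Rps15a to Rpl13a, are those with the 6 lowest log2 fold changes of the set. WT replicate 4 enters both the ratio and the fold change, so part of this overlap is built in.

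**Figure D2:**
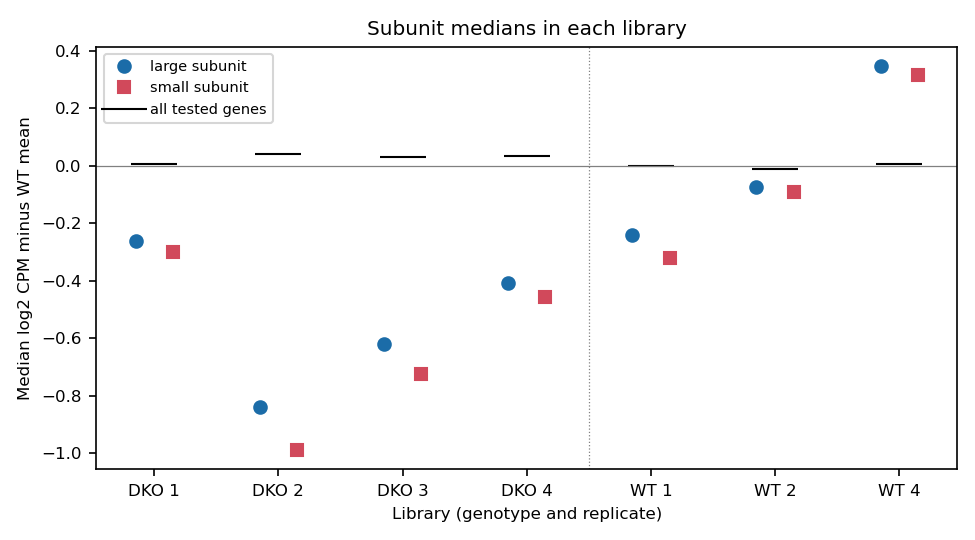
Median log2 CPM of the large-subunit genes (circles) and small-subunit genes (squares) minus the WT mean, for each library, with DKO on the left. Black bars give the median of all tested genes. Both subunits move together, with the lowest medians in DKO replicate 2 (-0.84 and -0.99) and the highest in WT replicate 4 (0.35 and 0.32).

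By median log2 fold change, large and small subunits were lower to a similar extent. By summed level, DKO was at 72.9% of WT for the large and 63.5% for the small subunit. Large-subunit mRNAs summed to 4728, 3187, 4120 and 4239 CPM in DKO replicates 1 to 4, and to 4741, 5334 and 6672 CPM in WT replicates 1, 2 and 4. Small-subunit mRNAs summed to 3242, 1979, 2570 and 2656 CPM in DKO and to 3227, 3666 and 5454 CPM in WT. The large-subunit sums did not overlap between groups by a narrow margin, and the small-subunit sums overlapped between DKO replicate 1 and WT replicate 1.

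Among large-subunit genes 45 of 46 had a log2 fold change below 0, 28 (60.9%) were lower at an unadjusted edgeR p under 0.05 and the median was -0.50. Among small-subunit genes all 31 were below 0, 21 (67.7%) were lower at that threshold and the median was -0.57. DESeq2 called 9 large-subunit and 11 small-subunit genes as lower. The small-subunit median minus the large-subunit median was -0.04, -0.15, -0.10 and -0.05 in DKO replicates 1 to 4, and -0.08, -0.02 and -0.03 in WT replicates 1, 2 and 4, so the libraries of both genotypes overlapped in the balance between subunits. Large-subunit reads made up 59.3% to 61.7% of the set in DKO libraries, and 59.5%, 59.3% and 55.0% in WT replicates 1, 2 and 4.

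Levels per kilobase (kb) of mRNA differed widely among the members, although most of the proteins are used in equal numbers. The order was led by Rps25, at 577 CPM per kb over all libraries, then Rpl41 at 502, Rps14 at 472, Rpl3 at 389 and Rplp0 at 349 CPM per kb, and the median member was at 92.5 CPM per kb. Among Rps25, Rpl41, Rps14 and Rpl3, each differed from the next by less than 1 SD between animals of the more variable gene, in both genotypes. That SD leaves out that the genes share libraries. Rps14 was above Rpl3 in WT replicates 1, 2 and 4, at 477, 460 and 1013 against 404, 413 and 376 CPM per kb. In DKO replicates 1 to 4 Rps14 was at 426, 274, 295 and 359 against 395, 341, 426.5 and 367 CPM per kb. Rpl3 and Rplp0 differed by less than that SD in WT kidneys and by more in DKO kidneys. Rpl3 was at 382 ± 36.7 CPM per kb in DKO (SD, n = 4) and 398 ± 19.0 CPM per kb in WT (SD, n = 3), and Rplp0 at 301 ± 62.5 CPM per kb in DKO and 413 ± 88.6 CPM per kb in WT. At the low end stood Rpl13a at 11.2, Rps20 at 7.95, Rpl23a at 5.50 and Rpl24 at 0.812 CPM per kb. Rows of close copies, described below, held 79.4% of the reads for Rpl24, 67.5% for Rpl13a and 7.47% for Rpl23a, which has 19 such copies. How far reads divided with copies lower these levels was not tested. The length used for Rps20 (3706 nt) and Rps15a (5130 nt) is that of a long annotated transcript, so their levels per kb come out low.

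Among the large-subunit genes, those of the peptide exit tunnel included several of the largest differences. Their 8 genes, Rpl4, Rpl17, Rpl19, Rpl23a, Rpl26, Rpl31, Rpl35 and Rpl39, had a median log2 fold change of -0.93, and 6 were lower at an unadjusted p under 0.05, against 11.3% of all tested genes. Without WT replicate 4 the median was -0.50 and 4 were lower, against 4.45% of all genes. Rpl19 (ENSMUSG00000017404, chr11:98026710-98030492, plus strand), which lies beside the tunnel exit, was at 66.5, 36.7, 51.6 and 50.9 CPM in DKO replicates 1 to 4, and at 76.9, 78.3 and 125 CPM in WT replicates 1, 2 and 4. Every DKO kidney was below every WT kidney, and the log2 fold change was -0.86 (SE 0.23, edgeR adjusted p 0.163 and DESeq2 adjusted p 0.0282). Rpl19 had the smallest unadjusted p of all members, 0.00325.

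Rpl31 (ENSMUSG00000073702, chr1:39367842-39371911, plus strand), also at the tunnel exit, was at 40.2, 28.0, 27.6 and 42.0 CPM in DKO, and at 50.5, 48.1 and 108 CPM in WT replicates 1, 2 and 4. The groups did not overlap (log2 fold change -0.996, SE 0.29, edgeR adjusted p 0.163), but WT replicate 4 was 2.19 times the mean of the other WT kidneys, and without it the log2 fold change was -0.52. Rpl35 (ENSMUSG00000062997, chr2:39001580-39005624, minus strand), which helps to dock the signal recognition particle, was at 81.6, 40.5, 47.0 and 59.6 CPM in DKO and 80.03, 105 and 176 CPM in WT. Here DKO replicate 1 was above WT replicate 1 (log2 fold change -1.07, SE 0.30, DESeq2 adjusted p 0.0239, and -0.70 without WT replicate 4).

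Rpl39 (ENSMUSG00000079641, chrX:37082520-37085402, minus strand), a very small protein that lines the tunnel, was at 18.6, 9.66, 9.84 and 21.2 CPM in DKO and at 18.7, 26.4 and 62.8 CPM in WT. DKO replicate 4 exceeded WT replicate 1, and the log2 fold change of -1.27 (SE 0.44) was -0.60 without WT replicate 4. Rpl4 (ENSMUSG00000032399, chr9:64173375-64178666, plus strand), whose long loop narrows the tunnel, was at 348, 241, 366 and 304 CPM in DKO, and at 290 (replicate 1), 358 (replicate 2) and 288 (replicate 4) CPM in WT. Its groups overlapped fully and its log2 fold change was 0.01 (SE 0.19).

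The stalk of the large subunit, made of Rplp0, Rplp1 and Rplp2 on the base protein Rpl12, recruits the translation factors that hydrolyse GTP. These 4 genes had log2 fold changes of -1.24 (Rpl12) to -0.45 (Rplp0), with a median of -0.55. At an unadjusted p under 0.05, 3 were lower, against 60.9% of large-subunit genes and 11.3% of all tested genes. Without WT replicate 4 Rpl12 was at -0.60, the median was -0.35 and 2 were lower, against 4.45% of all genes. Rplp2 (ENSMUSG00000025508, chr7:141447370-141451585, plus strand), which has no close copy elsewhere in the annotation, was at 116, 84.1, 86.2 and 102 CPM in DKO, and at 123, 136 and 158 CPM in WT. Its groups did not overlap (log2 fold change -0.51, SE 0.17, edgeR adjusted p 0.165), and the log2 fold change was -0.42 without WT replicate 4.

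Rplp0 (ENSMUSG00000067274, chr5:115559467-115563727, plus strand), the largest stalk protein, was at 507, 312, 444 and 373 CPM in DKO and 481, 502 and 699 CPM in WT. DKO replicate 1 lay above both WT replicates 1 and 2 (log2 fold change -0.45, SE 0.21, unadjusted p 0.0550, and -0.27 without WT replicate 4). Rplp1 was at 64.0 ± 10.7 CPM in DKO (SD, n = 4) and 96.2 ± 31.6 CPM in WT (SD, n = 3), with overlapping groups, and its log2 fold change of -0.59 was -0.29 without WT replicate 4.

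The pair that binds the smallest ribosomal RNA of the large subunit, and that outside the ribosome restrains the p53 regulator Mdm2, gave unlike values. Rpl11 (ENSMUSG00000059291, chr4:136028265-136053428, minus strand) was at 84.7, 46.6, 78.4 and 69.6 CPM in DKO, and at 91.5, 90.1 and 172 CPM in WT, without overlap (log2 fold change -0.76, SE 0.27, edgeR adjusted p 0.175, -0.38 without WT replicate 4). Rpl5 (ENSMUSG00000058558, chr5:107900502-107909005, plus strand) was at 87.9, 81.7, 116 and 72.2 CPM in DKO, and at 74.4, 87.9 and 129 CPM in WT. Its groups overlapped (log2 fold change -0.12, SE 0.22), and without WT replicate 4 the value was 0.14.

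Elsewhere in the large subunit, Rpl13a (ENSMUSG00000074129, chr7:45125558-45128761, minus strand) had the lowest log2 fold change. It was at 9.81, 5.62, 5.33 and 7.71 CPM in DKO and at 12.9, 10.96 and 29.9 CPM in WT, with every DKO kidney below every WT kidney (log2 fold change -1.33, SE 0.35, edgeR adjusted p 0.163 and DESeq2 adjusted p 0.0218). Without WT replicate 4 it was -0.74. Rpl27 (ENSMUSG00000063316, chr11:101442298-101445529, plus strand), a protein of the subunit's outer surface, was at 35.5, 19.8, 21.9 and 31.3 CPM in DKO, and at 42.0, 37.9 and 62.8 CPM in WT, also without overlap (log2 fold change -0.81, SE 0.24, DESeq2 adjusted p 0.0395).

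The large-subunit genes with the highest levels did not behave alike. Rpl41 (ENSMUSG00000093674, chr10:128548114-128549305, minus strand), the shortest of all ribosomal proteins, was at 289, 144, 155 and 256 CPM in DKO and 254, 369 and 443 CPM in WT. DKO replicates 1 and 4 lay above WT replicate 1 (log2 fold change -0.75, SE 0.28, unadjusted p 0.0205). Rpl3 (ENSMUSG00000060036, chr15:80077791-80091868, minus strand), which reaches towards the peptidyl transferase centre, was at 534, 461, 576 and 496 CPM in DKO and 546, 557 and 508 CPM in WT, a log2 fold change of -0.06 (SE 0.16). Rpl9 (ENSMUSG00000047215, chr5:65388364-65391444, minus strand) was at 211, 121, 179.7 and 164 CPM in DKO and at 203, 248 and 207 CPM in WT, with DKO replicate 1 inside the WT range (log2 fold change -0.38, SE 0.20).

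**Figure D3:**
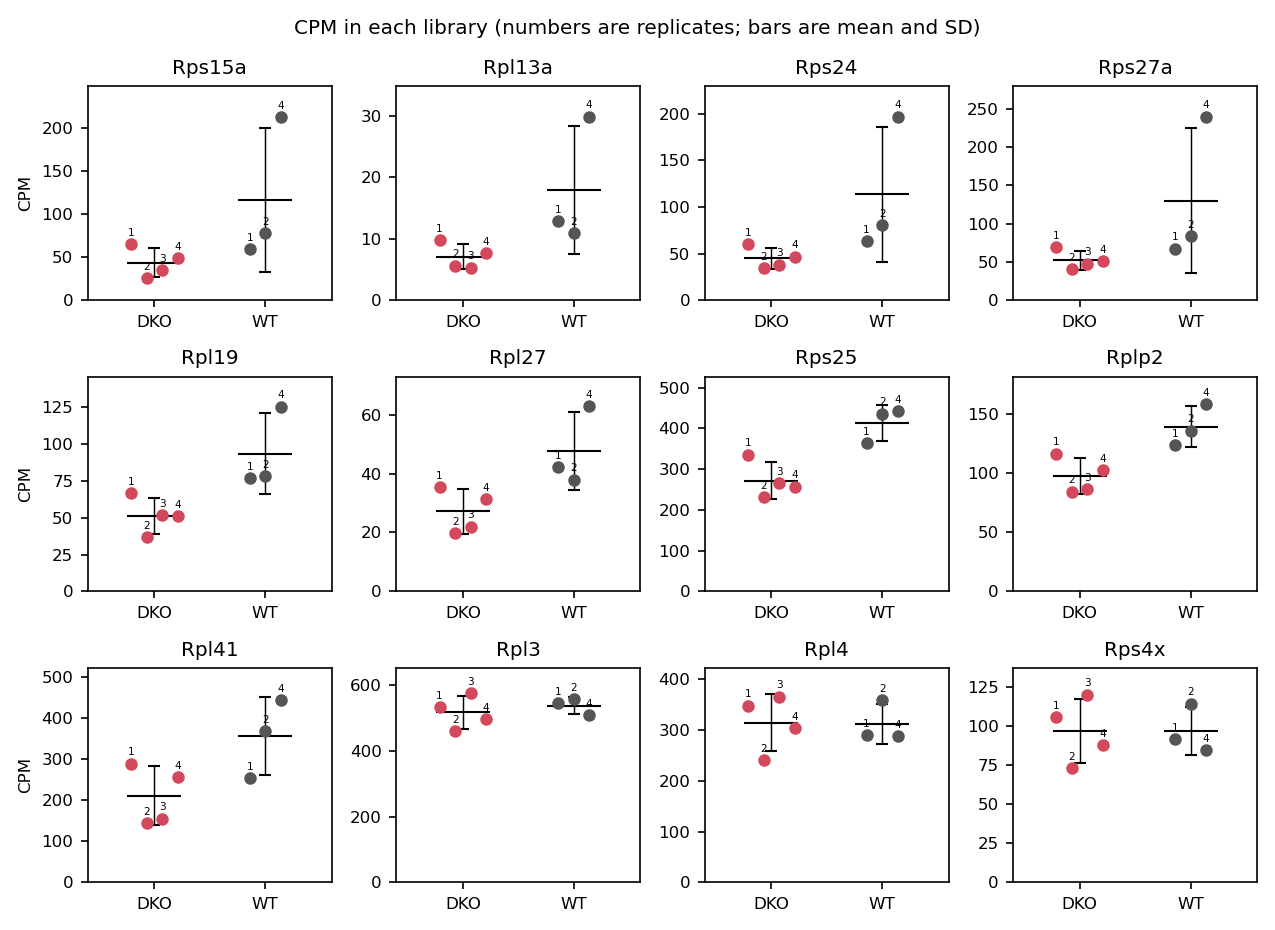
CPM of 12 ribosomal protein genes in each library, DKO to the left of WT. Points carry the replicate number, and bars give the mean and SD (n = 4 DKO, n = 3 WT). In Rps15a, Rpl13a, Rps24 and Rps27a WT replicate 4 lies far above every other kidney, in Rps25 and Rplp2 the groups separate without it, and in Rpl3, Rpl4 and Rps4x the groups overlap fully.

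Among small-subunit genes, the lowest log2 fold changes belonged to Rps15a, Rps24 and Rps27a, and in each of them WT replicate 4 was the highest library by far. Rps15a (ENSMUSG00000008683, chr7:118104372-118116188, minus strand), a protein of the subunit's body, was at 65.5, 25.8, 35.5 and 49.0 CPM in DKO and at 59.4, 78.3 and 213 CPM in WT. DKO replicate 1 lay above WT replicate 1. The log2 fold change was -1.41 (SE 0.47, unadjusted p 0.0168, DESeq2 adjusted p 0.0257), and -0.65 without WT replicate 4.

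Rps24 (ENSMUSG00000025290, chr14:24487125-24496959, plus strand), a gene mutated in human Diamond-Blackfan anaemia, was at 60.1, 34.6, 38.3 and 46.8 CPM in DKO, and at 63.3, 80.4 and 197 CPM in WT. The groups did not overlap (log2 fold change -1.33, SE 0.37, edgeR adjusted p 0.163 and DESeq2 adjusted p 0.0218), and the log2 fold change was -0.68 without WT replicate 4. Rps7 (ENSMUSG00000061477, chr12:28630854-28635953, minus strand), which also binds Mdm2, was at 29.4, 16.6, 22.9 and 25.4 CPM in DKO and at 33.9, 35.3 and 76.2 CPM in WT, without overlap (log2 fold change -1.04, SE 0.30, -0.56 without WT replicate 4).

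In the beak and head of the small subunit, 7 of the 11 genes assigned to these regions were lower at an unadjusted p under 0.05, the same share as in the whole set and against 11.3% of all tested genes. Leaving out WT replicate 4 gave 2 in the beak and 1 in the head, against 4.45% of all genes. Rps27a (ENSMUSG00000020460, chr11:29545846-29548109, minus strand), which is made as a fusion with ubiquitin, was at 69.5, 40.5, 47.9 and 51.5 CPM in DKO and 67.6, 83.4 and 239 CPM in WT, with DKO replicate 1 above WT replicate 1 (log2 fold change -1.31, SE 0.41, -0.53 without WT replicate 4). Rps25 (ENSMUSG00000009927, chr9:44407139-44410427, plus strand), a head protein used by some viral internal ribosome entry sites, was at 335, 230.5, 265 and 257 CPM in DKO, and at 364, 436 and 443 CPM in WT. Every DKO kidney was below every WT kidney and WT replicate 4 was close to WT replicate 2, with a log2 fold change of -0.61 (SE 0.18, edgeR adjusted p 0.163 and DESeq2 adjusted p 0.0288) that was -0.56 without WT replicate 4.

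Around the decoding centre, Rps15 (ENSMUSG00000063457, chr10:80292453-80294114, plus strand) was at 126, 64.4, 90.0 and 98.0 CPM in DKO and at 146, 132 and 304 CPM in WT, without overlap (log2 fold change -1.04, SE 0.31, -0.56 without WT replicate 4, DESeq2 adjusted p 0.0294). Rps23, its neighbour at that centre, had a log2 fold change of -0.51 (SE 0.20) with overlapping groups.

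At the mRNA exit and platform, Rps14 and Rpsa were lower and Rps26 and Rps28 did not reach the unadjusted threshold. Rps14 (ENSMUSG00000024608, chr18:60747098-60778546, plus strand), the gene lost in human deletion 5q syndrome, was at 255, 164, 176 and 214 CPM in DKO and at 285, 275 and 605 CPM in WT, without overlap (log2 fold change -0.94, SE 0.28, DESeq2 adjusted p 0.0305). Rpsa (ENSMUSG00000032518, chr9:120127689-120132369, plus strand), which is also described as a laminin receptor, was at 47.3, 32.1, 45.6 and 44.5 CPM in DKO, and at 63.3, 55.3 and 122 CPM in WT, again without overlap (log2 fold change -0.92, SE 0.26, DESeq2 adjusted p 0.0294). Without WT replicate 4 these values were -0.47 for Rps14 and -0.49 for Rpsa.

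Rps28 (ENSMUSG00000067288, chr17:33819027-33824562, minus strand) was at 32.2, 20.8, 14.7 and 41.1 CPM in DKO and 24.3, 33.5 and 34.7 CPM in WT. The DKO kidneys spanned a wider range than the WT kidneys and enclosed it (log2 fold change -0.18, SE 0.31).

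Rps6 (ENSMUSG00000028495, chr4:86854660-86857412, minus strand), the substrate of the S6 kinases downstream of mTORC1, was at 133, 78.3, 137 and 114 CPM in DKO, and at 127, 144 and 147 CPM in WT. DKO replicates 1 and 3 lay within the WT range, and the log2 fold change was -0.27 (SE 0.20). Rps4x (ENSMUSG00000031320, chrX:102184941-102189394, minus strand), an X-linked small-subunit protein, was at 106, 73.1, 120.1 and 87.9 CPM in DKO and 91.4, 114 and 84.7 CPM in WT. Its means were 96.7 ± 20.5 CPM in DKO (SD, n = 4) and 96.8 ± 15.5 CPM in WT (SD, n = 3).

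The lower level of ribosomal protein mRNAs was shared by other genes with short mRNAs. The 14 ribosomal protein genes with an mRNA of up to 500 nt had a median log2 fold change of -0.73, against -0.72 for 78 other protein-coding genes of that length. At an unadjusted p under 0.05, 8 of these 14 (57.1%) were lower, against 41.0% of the others. From 500 to 700 nt the 18 ribosomal protein genes had a median of -0.70, against -0.60 for 199 other genes, and 77.8% were lower, against 55.3% of the others. From 700 to 1000 nt the medians were -0.49 for 26 ribosomal protein genes and -0.45 for 582 other genes, with 69.2% and 43.0% lower.

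From 1000 to 1500 nt the medians were -0.32 for 12 ribosomal protein genes and -0.26 for 1402 other genes, with 33.3% and 25.4% lower. Longer mRNAs of other genes were near or above 0, at -0.06 from 1500 to 2500 nt (3411 genes, 11.3% lower) and at 0.18 above 2500 nt (7706 genes, 3.74% lower). The 5 ribosomal protein genes from 1500 to 2500 nt had a median of -0.84, with Rpl4 and Rpl5 near 0 and Rps24 lowest, and those above 2500 nt were Rps15a (-1.41) and Rps20 (-0.84), with a median of -1.12. Without WT replicate 4 these medians of ribosomal protein genes were -0.37 and -0.55. The log2 fold change medians of the other genes are given with all libraries only. Relative to the mean of all WT kidneys, other genes of 1500 to 2500 nt had medians of -0.083 to 0.0009 in DKO libraries. In WT replicates 1 and 2 these were -0.008 and -0.003. Above 2500 nt the medians of the other genes were 0.081 to 0.249 in DKO libraries, and 0.046 and 0.019 in WT replicates 1 and 2. Whether the long annotated transcripts of Rps15a and Rps20 are those expressed in kidney was not tested.

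WT replicate 4 was also the highest library for other short mRNAs. Other genes of 500 to 700 nt had medians of -0.40, -0.71, -0.85 and -0.38 in DKO replicates 1 to 4 and of -0.18, -0.20 and 0.38 in WT replicates 1, 2 and 4, and DKO replicate 3 was the lowest. With a trend on mRNA length and GC content removed in each library, the median of the 77 members was -0.22, and 22 of them (8.74% of all genes) were lower at an unadjusted p under 0.05. In that fit 64 members were below 0 and 13 above. Removing a trend on merged exon length and GC content in its place gave a median of -0.41 and 39 members (9.94% of all genes).

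Among individual members with that mRNA trend removed, the log2 fold change was -1.04 for Rpl13a, -1.17 for Rps24, -0.52 for Rpl19, -0.24 for Rps25 and -0.24 for Rplp2. It was -1.64 for Rps15a, whose annotated length counts it as a long mRNA. Across the 77 members themselves, the Spearman correlation of the log2 fold change with mRNA length was 0.23 and with coding length 0.36, as a description over genes measured in the same 7 libraries. Correlations with GC content (-0.12), level per kb (0.08) and number of copies (0.02) were weaker. The members' mRNAs had a median length of 774 nt, and their coding parts ran from 75 nt (Rpl41) to 1257 nt (Rpl4).

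**Figure D4:**
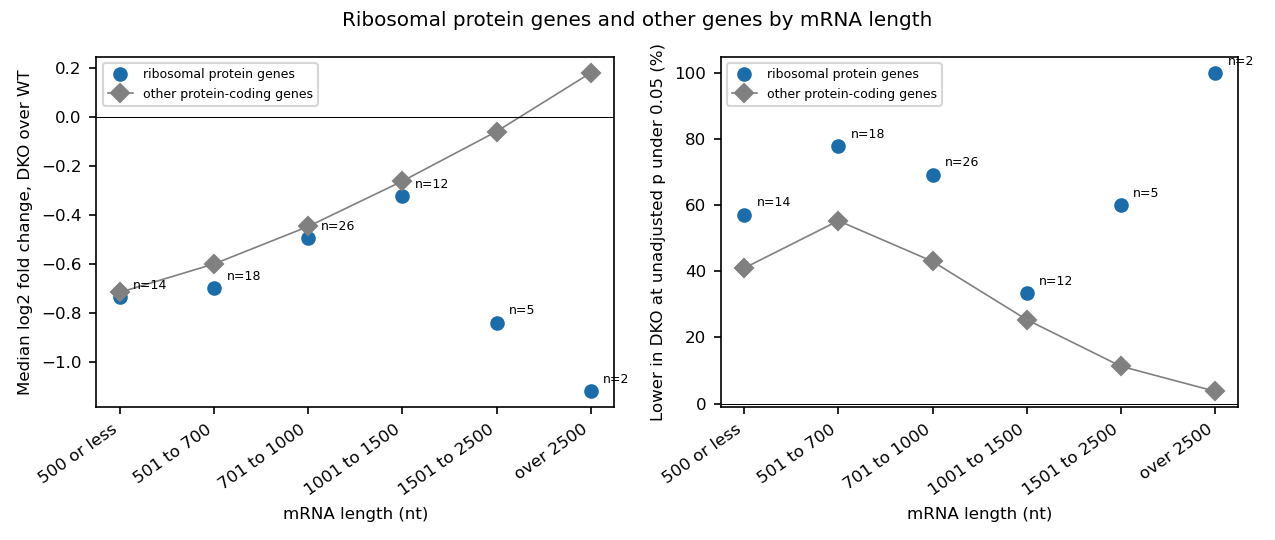
Median log2 fold change of DKO over WT (left) and percentage of genes lower in DKO at an unadjusted edgeR p under 0.05 (right), by mRNA length, for ribosomal protein genes (circles, with their number) and other protein-coding genes (diamonds). Up to 1500 nt both medians climb together, between -0.73 and -0.26. Above 1500 nt the medians of the 7 ribosomal protein genes (-0.84 and -1.12) lie below those of the others with all libraries. Without WT replicate 4 the ribosomal protein medians were -0.37 and -0.55, and those of the others are not given.

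Ribosomal protein genes have many processed copies in the genome, and reads can be divided between a gene and its copies. A copy was an annotated gene aligned to the member's mRNA at 95% identity or more, over at least 80% of the length of its coding part. The alignment could lie in any part of the mRNA. By this rule members had a median of 5 copies, up to 56 for Rpl21. Rows of such copies held a median of 4.08% of the reads of a member and its copies together. The share was highest for Rpl24 (79.4%), Rpl13a (67.5%), Rpl37 (23.5%) and Rps7 (18.9%), so the values of these genes are uncertain. Next came Rps16 (17.5%), Rpl35 (17.0%) and Rps12 (16.9%). How reads that match a member and a copy equally were counted is not known, so a low share does not make a value certain.

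Reads in the copies followed the members. All close-copy rows together summed to 435, 302, 339 and 418 CPM in DKO replicates 1 to 4 and to 421, 495 and 661 CPM in WT replicates 1, 2 and 4, with WT replicate 4 the highest and DKO replicate 2 the lowest. Their mean was 373 ± 63.4 CPM in DKO (SD, n = 4) and 526 ± 123 CPM in WT (SD, n = 3). The 4 members with no close copy, Rpl8, Rplp2 and Rps3 among them, had a median log2 fold change of -0.51, close to that of the whole set. Rpl24 received only 14, 7, 10 and 11 reads in DKO and 14, 7 and 17 reads in WT, too few to show a difference of the size seen in other members.

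Ribosomal components outside the naming rule had values within the range of the set. Rack1, a scaffold on the head of the small subunit, was at 335, 224, 301 and 256 CPM in DKO and 391, 368 and 598 CPM in WT, without overlap (log2 fold change -0.70, SE 0.21, edgeR adjusted p 0.163 and DESeq2 adjusted p 0.0382). Fau, made as a fusion of a ubiquitin-like protein with a small-subunit protein, was at 95.6, 45.6, 74.1 and 84.6 CPM in DKO, and at 96.1, 91.4 and 152 CPM in WT (log2 fold change -0.60, SE 0.26, unadjusted p 0.0431), and DKO replicate 1 lay above WT replicate 2.

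Paralogs of ribosomal proteins had values in the same direction. Of 13 listed, 10 were tested, all 10 were below 0 (median log2 fold change -0.67) and 6 were lower at an unadjusted p under 0.05, against 11.3% of all tested genes and 55.3% of other genes of 500 to 700 nt. Rps27l, a p53-responsive relative of Rps27, was at 226, 132, 122 and 187 CPM in DKO and at 213, 270 and 622 CPM in WT (log2 fold change -1.15, SE 0.37), with DKO replicate 1 above WT replicate 1. Rps4l, a relative of Rps4x, was at 6.78 ± 0.789 CPM in DKO (SD, n = 4) and 10.9 ± 1.03 CPM in WT (SD, n = 3), a log2 fold change of -0.69 (SE 0.17, edgeR adjusted p 0.163) with no overlap between groups. These paralogs are short too, with a median mRNA of 663 nt, and Rpl10l had 0 reads.

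Other genes whose mRNAs carry the TOP motif, mostly translation factors, were mixed. Of 22 tested, 8 were lower and 1 higher at an unadjusted p under 0.05, against 11.3% and 9.86% of all tested genes, with a median log2 fold change of -0.15. The 8 include Rack1 and Fau, given above. Tpt1, the translationally controlled tumour protein, was at 275, 174, 213 and 239 CPM in DKO and 347, 283 and 591 CPM in WT, without overlap (log2 fold change -0.85, SE 0.25, DESeq2 adjusted p 0.0319). The elongation factor subunit Eef1b2 (-0.69) and the initiation factor subunit Eif3h (-0.59) were also among the lower ones. The higher one was Pabpc1, the poly(A)-binding protein, at 0.40. This list has a median mRNA of 1714 nt, longer than that of the ribosomal proteins.

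Genes that build ribosomes were not lower as a list. Of 39 tested, 16 were below 0 and 23 above, with a median of 0.05, and at an unadjusted p under 0.05 4 were lower and 3 higher, near the 11.3% and 9.86% of all tested genes. The lower ones were Nip7, which acts in pre-rRNA processing (-1.06), Nop10 and Nhp2, small proteins of the pseudouridylation particle (-0.80 and -0.58), and the polymerase subunit Polr1c (-0.38). The higher ones were Polr1a, the catalytic subunit of RNA polymerase I (0.59), Nol6 (0.51) and Ncl, the nucleolar protein nucleolin (0.50), whose mRNAs are between 4599 and 9216 nt long. Nip7 was at 32.7, 27.2, 20.7 and 27.7 CPM in DKO and at 36.4, 39.0 and 94.0 CPM in WT, so its value rests largely on WT replicate 4.

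In the mTORC1 list 13 of 19 genes were above 0, 7 were higher at an unadjusted p under 0.05 and 0 were lower, against 9.86% and 11.3% of all tested genes, and the median was 0.09. The S6 kinase gene Rps6kb1 was at 63.7, 135, 94.9 and 108 CPM in DKO and at 56.3, 61.0 and 49.0 CPM in WT, with every DKO kidney above every WT kidney (log2 fold change 0.86, SE 0.23, edgeR adjusted p 0.163 and DESeq2 adjusted p 0.0288). Tsc2 (0.54) and Deptor (0.78), both negative regulators of mTORC1, and the scaffold Eif4g1 (0.54) were higher too. The list has long mRNAs, with a median of 5444 nt, and with the mRNA length and GC trend removed these values were 0.65 for Rps6kb1, 0.26 for Tsc2, 0.45 for Deptor and 0.26 for Eif4g1. Of 12 genes of ribosome quality control and dormancy, 1 was lower (Pelo, -0.45) and 1 higher (Ltn1, 0.64) at an unadjusted p under 0.05, no more than the 11.3% and 9.86% of all tested genes, and the median was 0.12.

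Immune and blood markers differed between the libraries as well. The 8 T and NK cell markers summed to 12.3, 9.51, 8.66 and 13.2 CPM in DKO replicates 1 to 4, and to 19.1, 10.6 and 24.8 CPM in WT replicates 1, 2 and 4, and 6 of the 7 tested were below 0 (median log2 fold change -1.18). At an unadjusted p under 0.05, 4 of these were lower (Cd3d, Cd3g, Nkg7 and Klrk1) and 0 higher, against 11.3% and 9.86% of all tested genes. Cd3d, Cd3g and Klrk1 rest on 163, 183 and 191 reads over all libraries, and Trac, with 785 reads, was at 0.16. Of the 8 macrophage markers 6 were below 0, and 2 were lower at that threshold, C1qa and C1qb (DESeq2 adjusted p 0.0295 for C1qb). The 2 above 0 were Csf1r (0.08) and Mrc1 (0.34). Of 6 tested B and plasma cell markers 1 was lower at that threshold, Cd79a. Median mRNA lengths were 1023 nt for tested T and NK cell, 1288 nt for macrophage and 1425 nt for B and plasma cell markers. Of other protein-coding genes of 1000 to 1500 nt, 25.4% were lower. With the mRNA length and GC trend removed, the log2 fold change of Cd3d went from -1.68 to -1.59 and of Cd3g from -1.41 to -1.02. Nkg7 went from -0.965 to -0.617, Klrk1 from -2.06 to -1.63, C1qa from -0.81 to -0.54 and C1qb from -1.12 to -0.86. The 7 B and plasma cell markers summed to 14.8 to 51.8 CPM in DKO libraries and 30.3 to 89.8 CPM in WT libraries, the 8 macrophage markers to 329 to 561 CPM in DKO and 403 to 698 CPM in WT, and the 6 cycling markers to 29.4 to 42.1 CPM in DKO and 41.8 to 52.7 CPM in WT. No listed marker was at 0 over the libraries. WT replicate 4 had the highest sums of T and NK cell, cycling and red cell markers. WT replicate 2 had T and NK cell and B cell sums within the DKO range, and its ribosomal protein sum of 9000 CPM was above every DKO kidney and above WT replicate 1. The red cell sum was 214 to 425 CPM in DKO libraries, and 623, 116 and 897 CPM in WT replicates 1, 2 and 4. The part of these cell types in the ribosomal protein result was not tested.

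Promoter windows, from 250 bases before to 50 after the annotated start, were matched in RefSeq on GRCm38.p6 for 57 of the 77 members (67 windows). The stretch of 15 bases on each side of the start is shown here for members with unlike values, chosen after those values were seen, because it holds the start of the mRNA where a TOP motif would lie. Capitals mark a C followed by 4 or more C or T on the gene's own strand. From Rpl13a to Rpsa the members had log2 fold changes of -1.33 to -0.51, and from Rps6 to Rps4x of -0.27 to 0.01.
Rpl13a, chr7:45128731-45128760, minus strand: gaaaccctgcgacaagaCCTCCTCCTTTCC
Rpl35, chr2:39005117-39005146, minus strand: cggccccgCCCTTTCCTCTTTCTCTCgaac
Rplp2, chr7:141447636-141447665, plus strand: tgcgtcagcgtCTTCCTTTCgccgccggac
Rpsa, chr9:120127751-120127780, plus strand: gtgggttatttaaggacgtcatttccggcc
Rps6, chr4:86857353-86857382, minus strand: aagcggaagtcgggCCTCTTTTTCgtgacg
Rps28, chr17:33824548-33824577, minus strand: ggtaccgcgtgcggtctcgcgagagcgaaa
Rpl4, chr9:64173372-64173401, plus strand: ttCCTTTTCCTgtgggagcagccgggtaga
Rps4x, chrX:102189377-102189406, minus strand: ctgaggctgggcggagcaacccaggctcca

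Members with large and with small log2 fold changes both occurred with and without such a run. A run within 15 bases of the start was present in 37 of the 57 members (64.9%) and in 39 of their 67 windows (58.2%), against 36.4% of all 32851 windows. A run that began exactly at the annotated start was present in 19.4% of the members' windows and 2.51% of all windows. The median log2 fold change was -0.57 for the 37 members with a run and -0.49 for the 20 without, and this difference was not tested.

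Of other letters searched in the whole window, ACTTCCG on either strand, the core bound by ETS-family factors, was in 31.3% of the members' windows and 6.42% of all windows. CTTTCC on the gene's strand, which can overlap the run of pyrimidines, was in 38.8% of the members' windows and 14.1% of all windows. AAGATGGC on either strand, the core of the YY1 motif, was in 10.4% of the members' windows and 2.75% of all windows. TATAAA on the gene's strand, the TATA box, was in 7.46% of the members' windows and 8.32% of all windows. These matches describe the letters of the windows only.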

How the data were processed

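RNA from 7 kidneys was sequenced from libraries that do not mark the strand, per the labels' protocols, and each library was treated as 1 animal because the labels number them separately. The authors deposited raw counts per Ensembl gene, a filtered copy of those counts and a TMM-scaled signal table in CPM. The submitters' processing notes name STAR 2.5.2a with edgeR, limma and DESeq2, and the builds GRCm38 (mm10) and GRCh38. The sources used here give neither the read counter nor the annotation release. All 18797 filtered rows were identical to rows among the 48733 of the raw table. The deposited signal table gave gene symbols only; 81 of its rows matched the naming rule and 4 were repeats. The 24 rows that are no Ensembl gene held at most 0.000697% of the counts and were left out.

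Tests used the quasi-likelihood F test of edgeR on raw counts (edgeR 4.0.16, R 4.3.3, robust fit, TMM scaling), DKO over WT, two-sided, with Benjamini-Hochberg adjustment over 15394 genes that passed filterByExpr (minimum count 10, minimum total 15). CPM were computed from raw counts with TMM scaling, and standard errors from the F statistic. DESeq2 1.42.0 and limma 3.58.1 served as alternatives, and all were tested on simulated data. The p-values set the difference between 4 and 3 animals against the spread between kidneys of a genotype, a spread estimated with the help of all tested genes. Chi-square statistics per gene between libraries were 41.3 to 101, so every library counts as its own sample.

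The members and the lists were chosen with earlier results of these data known. Named genes were, in each subunit, the 5 with the smallest p, the 4 with the highest CPM per kb and the 2 highest and 2 lowest log2 fold changes, with stalk genes, Rpl5, Rpl11, Rps6, Rps27a, Rpsa, Rack1 and Fau, and up to 4 genes of a list by p. Others named (Rps20, Rps23, Rpl24, Rpl21 and similar) were picked with their values in view. Some genes that the rule takes are not reported here. Gene positions and mRNA lengths came from GENCODE M21 on GRCm38, taking the principal transcript with the best support. Trends on length and GC content were removed with natural splines (5 degrees each) as offsets. Copies were found with blastn 2.17.0. Promoters came from RefSeq on GRCm38.p6.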

Additional observations from a re-analysis of the deposited data

How the results depend on the processing

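The median log2 fold change stayed below 0 for the whole set and for both subunits under all alternatives run. The count of members lower at an unadjusted edgeR p under 0.05, 49 with all libraries, was 22 with the mRNA length and GC trend removed, 8 without WT replicate 4 and DKO replicate 2 together, and 21 to 53 when 1 library was left out, with 21 without WT replicate 4 and 30 without DKO replicate 2. With the mRNA trend removed the medians were -0.22 for the set, -0.20 for the large and -0.23 for the small subunit. Leaving out 1 library gave medians of -0.67 to -0.38 for the set, -0.62 to -0.37 for the large and -0.72 to -0.41 for the small subunit. At an adjusted p under 0.05 DESeq2 called 20 members and 672 genes in all, and edgeR called 66 genes with no low-count filter, 0 of them members, and 0 to 7 genes when 1 library was left out. DESeq2 size factors, upper-quartile scaling, limma-voom and no low-count filter gave 46 to 51 members at the unadjusted threshold. The mRNA trend, the pair of libraries left out and the members with no close copy were alternatives chosen after seeing the data. The cause of these differences was not tested. Named genes that changed sign under at least 1 alternative included Rpl3, Rpl4, Rpl5, Rps28, Rps4x and Rps6.

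With the replicate number as a block, 42 members were lower at the unadjusted threshold, 41 of them among the 49, the median was -0.53 and 0 passed adjustment. Deviations of same-numbered libraries correlated at -0.13, 0.16 and 0.13 for replicates 1, 2 and 4, so the numbers were not taken to pair the animals. Depth limits Rpl24, and 3 WT kidneys limit every test here.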
